A study of Homo sapiens with 12 samples.

Results

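The genes described here are the AF4 family members AFF1, AFF3 and AFF4, the elongation factors ELL and ELL2, the YEATS proteins MLLT1 (ENL) and MLLT3 (AF9), the kinase CDK9 with its cyclin CCNT1, and the histone methyltransferase DOT1L. They were chosen by name as proteins of the super elongation complex and its DOT1L partner, and no measured value enters that rule. All 10 were found among the 52889 gene entries of the ATAC-Seq table, and all 10 were among the 27579 entries with enough reads to be tested.

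After initiation, RNA polymerase II pauses shortly downstream of the start site until the kinase P-TEFb, which is CDK9 bound to a cyclin T, phosphorylates the polymerase and its pausing factors. AF4 family proteins such as AFF1 and AFF4 are the scaffolds that bring P-TEFb, an ELL protein and MLLT1 or MLLT3 together in the super elongation complex, whereas DOT1L, which methylates histone H3 in the bodies of transcribed genes, binds the same YEATS proteins. In acute leukemia with a translocation between chromosomes 4 and 11, AFF1 (AF4) is fused to KMT2A (MLL), and both reciprocal fusion proteins, MLL-AF4 and AF4-MLL, can be made. Several of the other genes (ELL, MLLT1, MLLT3, AFF3 and AFF4) are known as MLL fusion partners as well.

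The cells were HEK293T, a human embryonic kidney line, and each of the 4 groups held 3 samples labelled as biological replicates. Mock cells carried the empty doxycycline-inducible vector (pSBTet-GP), and the day of their harvest was not given. Cells of d0 carried constitutive MLL-AF4, stably integrated with the Sleeping Beauty transposase and selected with puromycin. Cells of d3 carried the same MLL-AF4 plus inducible AF4-MLL, brought in by transient transfection and induced with doxycycline (1 µg/ml, 48 h). According to the methods of the study, blasticidin was given during the same 48 h. Cells of d28 have the genotype of d0 in the labels, and according to the methods of the study AF4-MLL had been shut down 25 days earlier. These cells are not of blood origin and carry no such translocation, and both fusion genes were cDNA constructs. ATAC-Seq uses the transposase Tn5, which inserts adapters where DNA in nuclei is accessible, and the table gives reads per gene, so a promoter and the body of its gene are not separated.

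The samples differed in depth and in the share of mitochondrial reads, and both moved with the groups. Total counts were 353430 to 501324 in Mock cells, 648466 to 715327 at d0, 930067 to 1186209 at d3 and 1058754 to 3539937 at d28. Mitochondrially encoded genes took 26.4% to 27.0%, 42.0% to 45.6%, 32.8% to 44.1% and 63.6% to 68.5% of them. Together the 10 genes held 173 to 663 counts per sample. Per 100000 counts outside the mitochondrial genes this was 69.8 ± 2.34 (SD, n = 3) in Mock cells, 69.4 ± 3.96 at d0, 63.5 ± 4.87 at d3 and 62.5 ± 2.71 at d28 (SD, n = 3 each). The ranges of Mock cells, d0 and d3 overlapped, while every d28 sample lay below every Mock and every d0 sample. This share depends on the reads of all other entries, nuclear copies of mitochondrial genes included. With the scaling described next, the median log2 fold change of the 10 genes at d28 against Mock cells was 0.21. The share sums counts, while the median weighs each gene alike, so neither settles the other. The lower share is not read as a fall at these genes. Counts were scaled with TMM factors to the mean effective library size, which gives the normalized counts used below, and the groups were compared with edgeR's quasi-likelihood test across all tested entries. A gene is called changed at a Benjamini-Hochberg adjusted p below 0.05. When only library sizes were used, the shift of all entries relative to Mock cells (their median on the log2 scale) was -0.48 for d0, -0.37 for d3 and -1.34 for d28, so differences are stated relative to the bulk of the genes. Counts per gene followed the span of the gene only weakly (Spearman's rho 0.157 across 16891 protein-coding genes), and levels are therefore not compared between genes. Genes of blood cells had reads as well, so the cell type of origin was not read from gene counts. The 6 genes typical of HEK293T cells summed to 91.9 to 131.9 normalized counts per sample and 6 genes of blood cells to 64.6 to 89.6. These ranges do not overlap, but they come from different genes. Of the blood cell genes only CD3E and MPO fell to 0 in a sample.

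The promoters of ELL, AFF1 and CCNT1 are shown, since ELL was called changed, AFF1 is the gene of the fusions, and CCNT1 had the highest mean count. Each window runs from 250 bases before to 50 bases after the start in RefSeq (GRCh38.p14), and a promoter was found for 8 of the 10 genes, all but ELL2 and DOT1L. Capitals mark matches on either strand, and the motifs searched were the GC box of the SP family (letters GGGCGG), the box bound by NF-Y (letters CCAAT), the box bound by TBP (letters TATAAA), the site of the ETS proteins (letters CCGGAAGT), the site of NRF1 (letters GCGCATGC), the E box of the bHLH proteins (letters CACGTG) and the site of YY1 (letters AAGATGGC). No 2 of these matches overlapped. The windows are chr19:18522021-18522320 on the minus strand for ELL, chr4:86934761-86935060 on the plus strand for AFF1 (the first of 2 annotated starts) and chr12:48716658-48716957 on the minus strand for CCNT1 (also the first of 2).
ELL: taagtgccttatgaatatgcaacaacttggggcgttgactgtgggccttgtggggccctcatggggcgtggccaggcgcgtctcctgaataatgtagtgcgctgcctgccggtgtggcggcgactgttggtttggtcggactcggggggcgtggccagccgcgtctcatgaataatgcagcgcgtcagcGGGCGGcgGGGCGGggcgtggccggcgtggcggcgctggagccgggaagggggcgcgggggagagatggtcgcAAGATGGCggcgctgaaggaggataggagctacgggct
AFF1: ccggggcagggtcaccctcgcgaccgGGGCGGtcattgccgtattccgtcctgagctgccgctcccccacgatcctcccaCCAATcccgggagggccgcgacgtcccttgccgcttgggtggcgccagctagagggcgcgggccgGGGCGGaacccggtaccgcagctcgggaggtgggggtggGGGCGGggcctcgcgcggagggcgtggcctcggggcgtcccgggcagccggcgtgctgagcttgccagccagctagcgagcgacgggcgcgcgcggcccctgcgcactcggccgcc
CCNT1: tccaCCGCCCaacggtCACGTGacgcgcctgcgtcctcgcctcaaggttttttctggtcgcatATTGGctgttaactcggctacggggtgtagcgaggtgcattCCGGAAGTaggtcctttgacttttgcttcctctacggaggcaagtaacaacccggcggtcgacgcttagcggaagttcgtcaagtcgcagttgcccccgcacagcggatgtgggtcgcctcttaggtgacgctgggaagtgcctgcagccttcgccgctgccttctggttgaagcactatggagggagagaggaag

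The ELL window held 31 CpG dinucleotides at 67.0% GC, with 2 adjacent GC boxes and, downstream of the start, 1 YY1 match. The AFF1 window was richer in GC (77.7%, 42 CpG), with 3 GC boxes and 1 NF-Y box, and the CCNT1 window was poorer (59.0%, 26 CpG), with 1 match each to the GC box, the NF-Y box, the ETS site and the E box. The median over all 35116 promoters of the list was 58.7% GC and 14 CpG. A GC box was found in 45.0% of these promoters, an NF-Y box in 34.6%, an ETS site in 4.14%, an E box in 7.26%, a YY1 site in 2.89%, an NRF1 site in 3.05% and a TBP box in 11.5%. No TBP box occurred in any window of the 8 genes. Promoter GC went along with small shifts of all genes: the median log2 fold change at d0 against Mock cells was 0.11 in the fifth of genes with the lowest promoter GC and -0.03 in the fifth that contains ELL.

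AFF1 encodes the scaffold that is part of both fusion proteins. It was not called in any comparison. Its normalized counts were 40.4, 58.0 and 59.1 in the Mock samples, 62.2, 79.4 and 66.0 at d0, and 63.1, 53.9 and 65.8 at d3. At d28 the values were 62.8, 63.3 and 68.4. The raw counts of AFF1 ran from 27 to 119 over the 12 samples. All samples of d0 and of d28 lay above all Mock samples, whereas d3 overlapped with Mock cells. Relative to Mock cells the log2 difference of AFF1 was 0.39 at d0 (95% interval 0.02 to 0.77, adjusted p = 0.491 by edgeR). It was 0.22 at d3 (-0.14 to 0.58, adjusted p = 0.702) and 0.29 at d28 (-0.06 to 0.64, adjusted p = 0.523). With scaling by library size alone, where all genes shift, the d28 value turned to -1.06. MLL-AF4 and AF4-MLL both contain AF4 cDNA, and reads from a construct cannot be told apart from those of the endogenous gene in counts per gene.

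**Figure D1:**
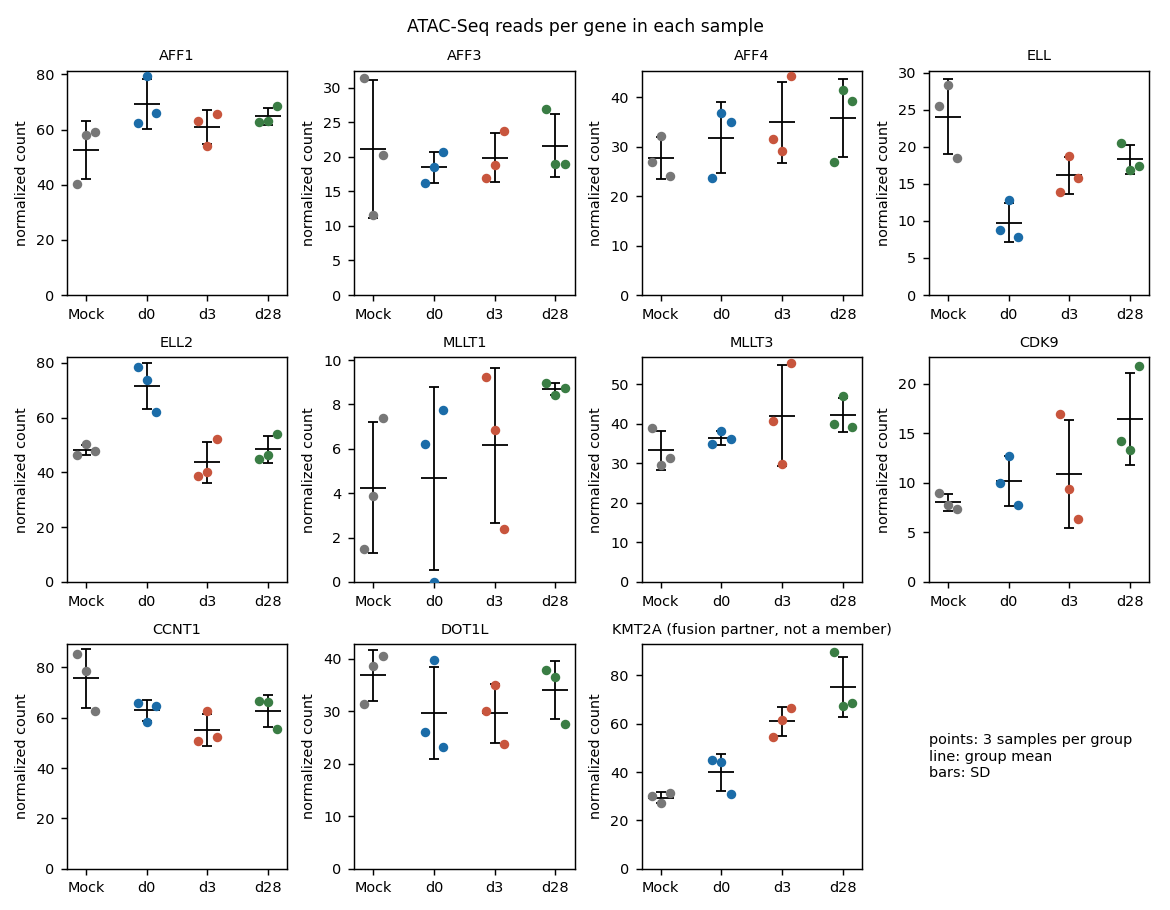
Normalized ATAC-Seq counts (y axis, linear, from 0) of the 10 genes and of KMT2A in the 12 samples, by group (x axis). Points are single samples, lines the group means and bars the SD (n = 3). The d0 samples of ELL lie between 7.77 and 12.8, below every Mock sample, and the d0 samples of ELL2 lie between 62.2 and 78.4, above every other sample of that gene.

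KMT2A, the other gene in the constructs, was called at d3 and d28. It had 29.9, 27.1 and 31.4 normalized counts in Mock cells, 44.8, 43.96 and 31.1 at d0, and 54.7, 61.6 and 66.6 at d3. At d28 the values were 89.7, 67.5 and 68.4. Every d3 and d28 sample was above every Mock and d0 sample, although the direct comparison of d3 with d0 was not called (0.61 ± 0.19 (SE) on the log2 scale, adjusted p = 0.0828). KMT2A differed from Mock cells by 0.45 ± 0.25 (SE) on the log2 scale at d0 (adjusted p = 0.577), 1.06 ± 0.21 at d3 (adjusted p = 2.12e-04) and 1.40 ± 0.20 at d28 (adjusted p = 9.63e-10). The 95 tested genes within 5 Mb of KMT2A had medians of 0.13 at d3 and 0.09 at d28 against Mock cells, and their part was not tested. As for AFF1, construct and endogenous reads cannot be told apart. The d28 samples, taken after the described shutdown of AF4-MLL expression, held the highest KMT2A counts, and the difference between d28 and d3 was not called (0.35 ± 0.14, adjusted p = 0.414). The study describes the AF4-MLL plasmid as lost without selection, and whether construct DNA remained at d28 was not tested here.

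AFF3 and AFF4, the other AF4 family genes of the set, were not part of a construct and were not called in any of the 6 comparisons. AFF4 ranged from 23.6 to 44.4 normalized counts over the 12 samples, with group means from 27.7 ± 4.17 (SD, n = 3) in Mock cells to 35.9 ± 7.86 (SD, n = 3) at d28. AFF3 ranged from 11.6 to 31.4, and both of these values came from Mock samples. The group means of AFF3 differed by no more than 1.17-fold. All neighbouring groups in the order of means overlapped, for AFF1, AFF3 and AFF4 alike.

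ELL, which suppresses transient pausing of the polymerase, had fewer reads in d0 cells. Its normalized counts were 25.4, 28.4 and 18.5 in Mock cells, 8.71, 12.8 and 7.77 at d0, and 13.9, 18.8 and 15.9 at d3. At d28 the values were 20.6, 16.9 and 17.5. The d0 samples were the lowest of all 12 and overlapped with no other group, while the ranges of d3 and d28 reached into that of Mock cells. At d0 ELL was 2.53-fold lower than in Mock cells (log2 fold change -1.34 ± 0.37 (SE), 95% interval -2.06 to -0.62, adjusted p = 0.0449). The values at d3 (-0.61 ± 0.30, adjusted p = 0.411) and at d28 (-0.40 ± 0.29, adjusted p = 0.602) did not pass the test. Neither did the direct comparisons with d0, with log2 fold changes of 0.73 ± 0.36 for d3 (adjusted p = 0.411) and 0.94 ± 0.35 for d28 (adjusted p = 0.161). The d0 value rests on 7, 9 and 6 raw reads. The call was kept in 3 of 13 alternatives other than scaling by library size alone, with log2 fold changes of -1.56 to -1.18 and adjusted p from 0.027 to 0.353, and it was lost without Mock replicate 1 or 2 or without any of the d0 samples. DESeq2 gave -1.35 with an unadjusted p of 0.00173 and no adjusted p. The 191 tested genes within 5 Mb of ELL on chromosome 19 had a median of -0.20 in the same comparison, and their part in the result was not tested. In bulk nuclei, a change in every cell and a change in a share of the cells cannot be told apart.

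ELL2, the second ELL protein of the set, showed its highest counts at d0. The normalized counts were 46.4, 50.3 and 48.0 in Mock cells, 78.4, 73.7 and 62.2 at d0, and 38.5, 40.2 and 52.3 at d3. At d28 the values were 44.9, 46.4 and 53.9. All d0 samples were above all the others, and Mock cells, d3 and d28 overlapped. ELL2 was 1.63-fold lower at d3 than at d0 (log2 fold change -0.71 ± 0.17 (SE), 95% interval -1.05 to -0.37, adjusted p = 0.0127). At d28 it was 1.51-fold lower than at d0 (-0.60 ± 0.17, 95% interval -0.93 to -0.27, adjusted p = 0.0374). The difference between d0 and Mock cells was 0.56 ± 0.20 and was not called (adjusted p = 0.228). Both calls were lost without d0 replicate 1 or 2, the first also without d3 replicate 1 or 2 and the second without d28 replicate 1 or 2, with adjusted p up to 0.169 and 0.269. Over 14 alternatives other than library sizes alone, the call was kept in 9 for d3 (-0.87 to -0.62) and in 5 for d28 (-0.68 to -0.51). The 34 tested neighbours within 5 Mb had medians of -0.18 and -0.09 in these comparisons, and their part was not tested.

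**Figure D2:**
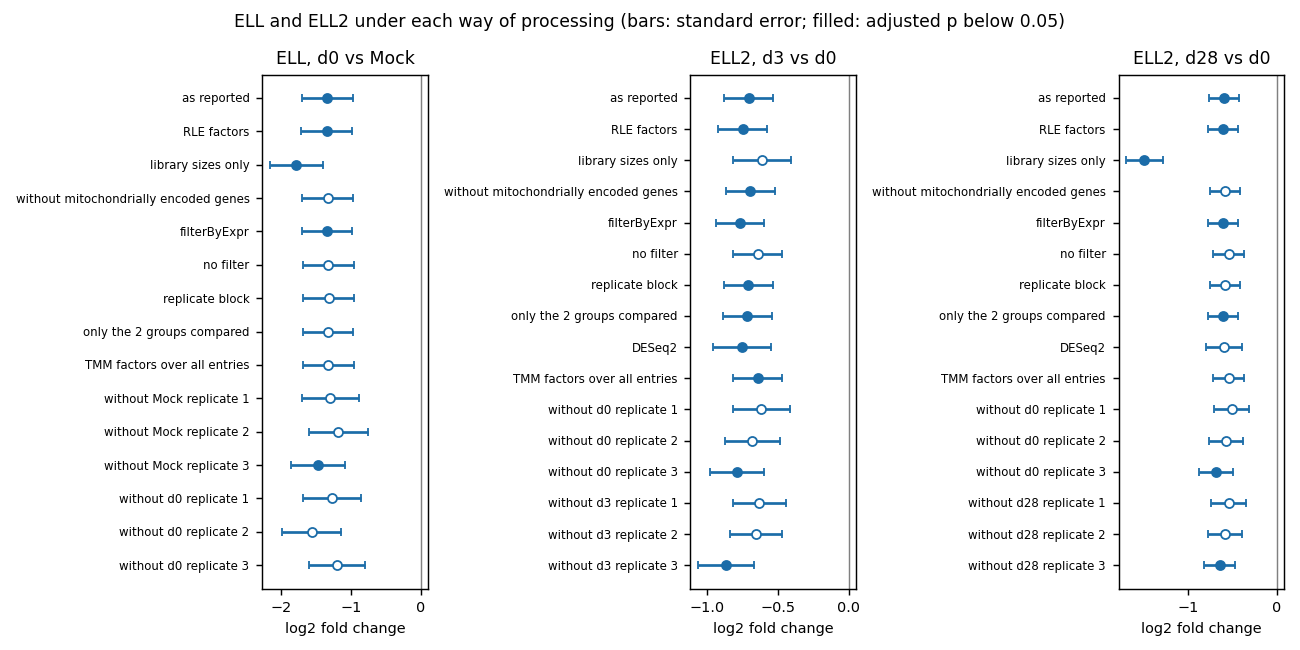
Log2 fold change (x axis) of ELL at d0 against Mock cells and of ELL2 at d3 and at d28 against d0, one row for each way of processing and each sample left out (y axis). DESeq2 has no row for ELL, since it gave no adjusted p there. Bars are standard errors, and filled points have an adjusted p below 0.05. All points lie below 0, between -1.78 and -1.18 for ELL, while most of them are open for ELL.

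MLLT1 and MLLT3 read acylated histones through their YEATS domains and link the complex to chromatin. MLLT1 was the most sparsely covered gene of the set, with 0 to 17 raw counts. It had no read in d0 replicate 2, where a count of 0 allows up to 3 counts, or 4.25 normalized counts. Its means were 4.25 ± 2.96 in Mock cells, 4.66 ± 4.11 at d0, 6.15 ± 3.48 at d3 and 8.71 ± 0.267 at d28 (SD, n = 3 each). The d28 samples lay above all Mock and all d0 samples, but the log2 fold change against Mock cells was 1.09 with an interval of 0.01 to 2.17 and was not called (adjusted p = 0.391). MLLT3 had 29.6 to 55.5 normalized counts. It was 0.35 (-0.08 to 0.78) on the log2 scale above Mock cells at d28 (adjusted p = 0.523), again without overlap between the samples of both groups.

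CDK9 and CCNT1, the kinase and the cyclin of P-TEFb, were not called in any comparison. CCNT1 had 85.3, 78.7 and 62.8 normalized counts in Mock cells, 65.9, 58.1 and 64.8 at d0, and 50.8, 62.5 and 52.3 at d3. At d28 the values were 66.5, 66.1 and 55.3. Only the d3 samples all lay below the Mock samples, and the closest of them was 62.5 against 62.8. The log2 fold change was -0.47 ± 0.17 (SE) at d3 (95% interval -0.81 to -0.14, adjusted p = 0.176), -0.28 at d0 (adjusted p = 0.661) and -0.25 at d28 (adjusted p = 0.551). CDK9 was sparse, with 4 to 27 raw counts, and its means were 8.03 ± 0.840 in Mock cells, 10.2 ± 2.50 at d0, 10.9 ± 5.45 at d3 and 16.5 ± 4.66 at d28 (SD, n = 3 each). The d28 samples, at 13.4 to 21.8, were above all Mock and d0 samples but not above all d3 samples. Against Mock cells the value at d28 was 0.92 (0.14 to 1.71, adjusted p = 0.286).

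DOT1L ranged from 23.3 to 40.6 normalized counts, with the highest mean in Mock cells (36.9 ± 4.84) and the lowest at d3 (29.6 ± 5.67, SD, n = 3 each). The log2 difference of DOT1L from Mock cells was -0.32 at d0 (-0.82 to 0.18), -0.32 at d3 (-0.77 to 0.14) and -0.05 at d28 (-0.48 to 0.38). All 4 groups overlapped. On chromosome 19 the genes within 5 Mb of DOT1L and of MLLT1 had a median of -0.28 each at d0 (205 and 265 genes), close to the value of DOT1L and below that of MLLT1 (0.25). At d3 and d28 the neighbours of DOT1L had medians of 0.04 and 0.06, above the values of DOT1L. Their part was not tested.

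**Figure D3:**
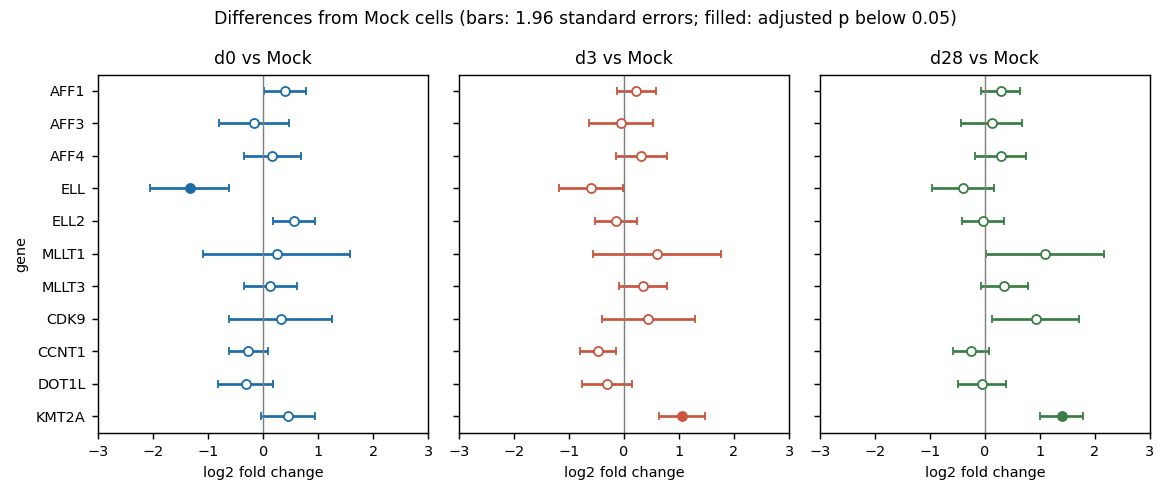
Log2 fold change against Mock cells (x axis) of the 10 genes and KMT2A (y axis) at d0, d3 and d28. Bars are 95% intervals, and filled points have an adjusted p below 0.05. Of the 10 genes only ELL at d0 (-1.34) is filled, while KMT2A is filled at d3 (1.06) and d28 (1.40).

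Counted over the set, 1 of the 10 genes was called at d0 against Mock cells (ELL, lower), where 0.609% of all tested entries were called. The groups did not overlap for 3 genes (AFF1 and ELL2 higher, ELL lower), against 14.4% of all tested entries. None of the 10 was called at d3 against Mock cells by edgeR, where 1.27% of all entries were called and 2 of the 10 had an unadjusted p below 0.05 (ELL and CCNT1). DESeq2 also called 0, with 1 at an unadjusted p below 0.05 (CCNT1) and no adjusted p for 2 (MLLT1 and CDK9). CCNT1 was the 1 gene without overlap, compared with 16.5% of all entries. At d28 against Mock cells 0 were called by edgeR, where 2 (MLLT1 and CDK9) had an unadjusted p below 0.05 and 1.45% of all entries were called. DESeq2 also called 0, with 0 at an unadjusted p below 0.05. It gave no adjusted p for 4 of the genes (AFF3, ELL, MLLT1 and CDK9), which could not be called. There the groups of 4 genes did not overlap (AFF1, MLLT1, MLLT3 and CDK9, all higher), against 17.7% of all entries. The median log2 fold change of the 10 genes was 0.15, 0.08 and 0.21 at d0, d3 and d28, beside 0.00, 0.03 and 0.03 for all tested entries, and the comparisons share the Mock samples.

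Against d0, 1 gene was called at d3 (ELL2, lower, with 0.91% of all entries called) and 1 at d28 (ELL2, lower, with 1.35% called). The groups did not overlap for 2 genes at d3, ELL higher and ELL2 lower, against 17.1% of all entries. At d28 they did not overlap for 5 genes, ELL, MLLT1, MLLT3 and CDK9 higher and ELL2 lower, against 18.2%. Between d28 and d3 none was called by edgeR or DESeq2, 0 had an unadjusted p below 0.05, and 0 were without overlap, where 0.37% of all entries were called and 14.3% did not overlap. DESeq2 gave no adjusted p for 2 of the genes (MLLT1 and CDK9) in that comparison. The median of the 10 genes was 0.11, 0.25 and 0.20 in these 3 comparisons, against 0.02, 0.04 and 0.01 for all tested entries.

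Other genes of transcription elongation were taken as a list of 33 genes by role, of which 32 were found in the table and tested. At d0 against Mock cells 0 were higher and 1 lower, at d3 2 higher and 0 lower, and at d28 1 higher and 0 lower, where 0.609%, 1.27% and 1.45% of all tested entries were called. The median of the list was 0.01, 0.13 and 0.01, beside 0.00, 0.03 and 0.03 for all tested entries. Against d0, 2 were higher at d3 and 2 at d28, with none lower, where 0.91% and 1.35% of all entries were called, and the medians were 0.26 and 0.11 beside 0.02 and 0.04. Between d28 and d3 none was called by edgeR or by DESeq2, which gave no adjusted p for 2 of them. By edgeR 4 had an unadjusted p below 0.05, and the median was -0.12 beside 0.01 (0.37% of all entries called).

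Among the inhibitors of P-TEFb, HEXIM2, which holds the kinase in an inactive ribonucleoprotein, had 26.9, 47.7 and 27.7 normalized counts in Mock cells and 11.2, 19.9 and 18.1 at d0. It was 2.16-fold lower at d0 (log2 fold change -1.11 ± 0.29 (SE), adjusted p = 0.0325) and the groups did not overlap, while its 253 neighbours within 5 Mb had a median of -0.20. At d3, with 31.7 to 36.2 normalized counts, it was above d0 (1.09 ± 0.26, adjusted p = 0.0111). The d0 call was kept in 8 of its alternatives other than library sizes alone and was lost with DESeq2, without a filter, with only the 2 groups compared and without Mock replicate 2, d0 replicate 1 or d0 replicate 3, with adjusted p up to 0.551. The difference between d3 and d0 was lost with DESeq2 and without d0 replicate 1 (adjusted p up to 0.19). The other inhibitors HEXIM1, LARP7 and MEPCE were not called against Mock cells.

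ELL3, the third ELL protein, was higher than in Mock cells at d3 (log2 fold change 1.23 ± 0.25 (SE), adjusted p = 3.96e-04) and at d28 (1.15 ± 0.25, adjusted p = 0.00116), and at d0 it had the smallest p of the genes with a positive value (0.67 ± 0.30, adjusted p = 0.436). Its normalized counts were 16.5, 18.1 and 22.2 in Mock cells, 32.4, 25.5 and 31.1 at d0, and 50.1, 35.1 and 46.0 at d3. At d28 the values were 34.8, 50.6 and 40.8. The d0 samples lay above Mock cells and below all samples of d3 and d28. The calls at d3 and d28 were kept in all 14 alternatives other than library sizes alone. ELL3 lies on chromosome 15, where the 126 tested genes within 5 Mb had medians of 0.63 at d3 and 0.57 at d28 against Mock cells. ICE2, a subunit of the little elongation complex on the same chromosome, was higher at d28 than at d0 (0.87 ± 0.25, adjusted p = 0.0427), with a median of 0.70 for its 76 neighbours. The call for ICE2 was kept in 7 of 14 alternatives other than library sizes alone, and was lost with DESeq2, with the replicate block and without d0 replicate 1 or 3 or any of the d28 samples (adjusted p up to 0.336). The part of the neighbourhood in these results was not tested.

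MLLT10 (AF10), a partner of DOT1L, was higher at d3 than in Mock cells (log2 fold change 0.72 ± 0.20 (SE), adjusted p = 0.0276), with 58.5 to 66.8 normalized counts against 33.5 to 46.2. The call was kept in 8 of 14 alternatives other than library sizes alone, and was lost with RLE factors, with DESeq2 and without Mock replicate 1 or 2 or d3 replicate 2 or 3 (adjusted p up to 0.228). The 47 tested genes within 5 Mb of MLLT10 had a median of 0.245 in the same comparison, and their part was not tested. SUPT6H, a histone chaperone that travels with the polymerase, was higher than at d0 at d3 (1.07 ± 0.28, adjusted p = 0.0303) and at d28 (1.11 ± 0.28, adjusted p = 0.0123). Its d0 samples had 8.51 to 20.7 normalized counts, those of d3 19.8 to 35.1 and those of d28 27.4 to 37.9, so that d0 overlapped with d3 but not with d28. Both calls were lost with DESeq2 and without d0 replicate 1 or 2, the first also without d3 replicate 1 or 2 and the second without d28 replicate 1 or 3 (adjusted p up to 0.268 and 0.184). Against Mock cells, at 20.3 to 26.9, SUPT6H was not called at d0 (-0.69, adjusted p = 0.492), d3 (0.38, adjusted p = 0.647) or d28 (0.42, adjusted p = 0.523). The 93 tested genes within 5 Mb of SUPT6H had a median of 0.20 at d3 and at d28 against d0, and their part was not tested. The genes with negative values and the smallest p against Mock cells were POLR2A, the largest polymerase subunit, at d3 (-0.52 ± 0.21, adjusted p = 0.280, with a median of -0.46 for its 190 neighbours within 5 Mb) and ZC3H8, of the little elongation complex, at d28 (-0.64 ± 0.28, adjusted p = 0.285, with a median of -0.22 for its 61 neighbours).

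**Figure D4:**
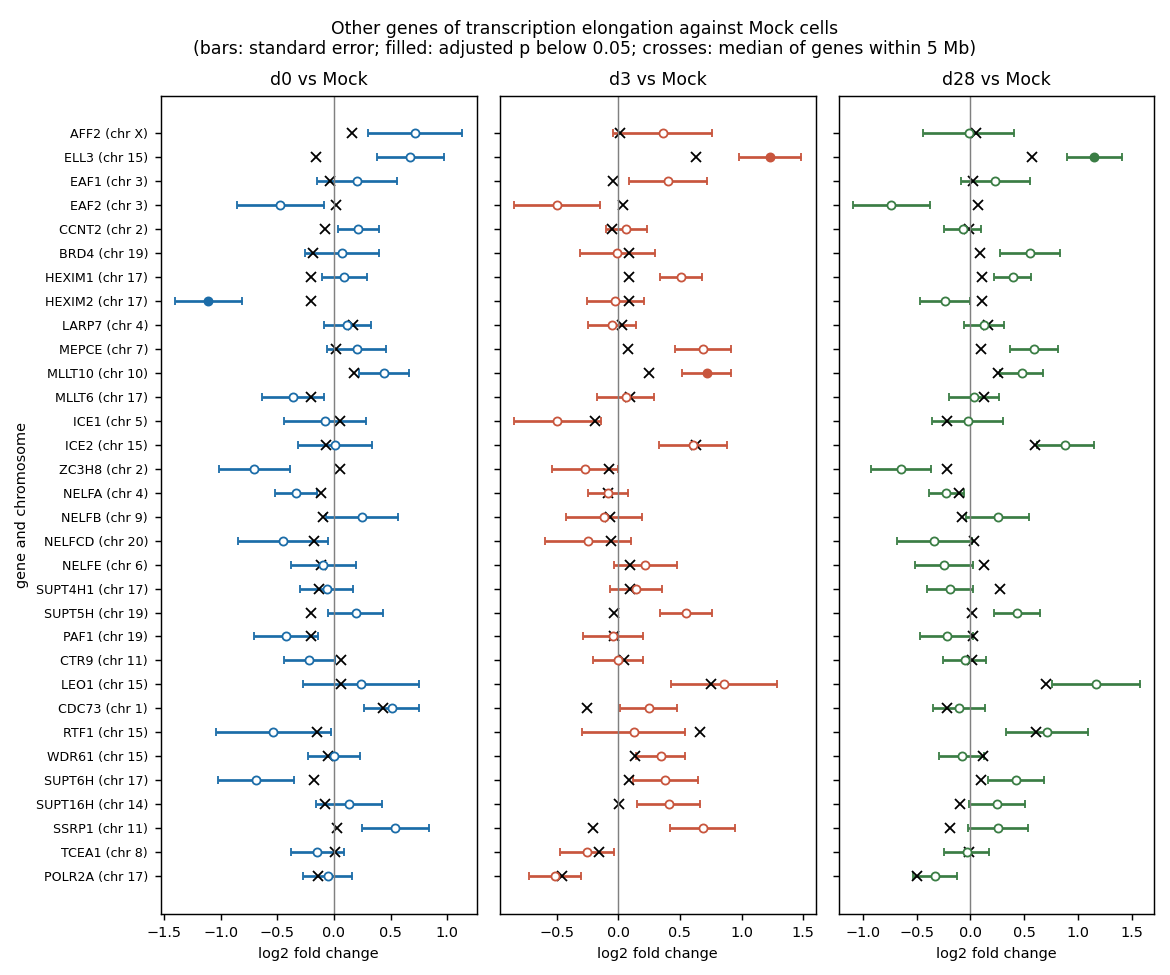
Log2 fold change against Mock cells (x axis) of the 32 other elongation genes (y axis, with their chromosomes) at d0, d3 and d28. Bars are standard errors, filled points have an adjusted p below 0.05, and crosses give the median of the tested genes within 5 Mb. HEXIM2 is filled at d0, ELL3 at d3 and d28 and MLLT10 at d3, and the crosses of the chromosome 15 genes ELL3, ICE2, LEO1 and RTF1 stand to the right at d3 and d28.

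The patterns of the 10 genes over the 12 samples were not alike. Pearson's r of log2 normalized counts between pairs of them ran from -0.69 (AFF1 with CCNT1) to 0.65 (AFF4 with MLLT3), and r was -0.62 for ELL with ELL2. These values describe 12 libraries that share groups and depth, and sparse counts limit them. Among 8276 entries whose mean over all samples was 20 normalized counts or more, the 5 most like AFF1 were FMNL2 (0.91), PRDM6 (0.91), C2CD5 (0.89), CEPT1 (0.88) and MTRR (0.88). The entry most like each of the others was SLC37A3 for AFF3 (0.90), CDK1 for AFF4 (0.92), SLC25A25-AS1 for ELL (0.87), RGMB-AS1 for ELL2 (0.88), IDH3G for MLLT1 (0.86), RBM23 for MLLT3 (0.84), SLC30A7 for CDK9 (0.88), ZNF862 for CCNT1 (0.86) and SF3A1 for DOT1L (0.81). These entries were picked as the highest among all those compared, and over 12 samples such picking alone gives high values. Whether any of them exceeds what unrelated entries would give was not tested.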

How the data were processed

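Nuclei of HEK293T cells were treated with the Nextera transposase, and the authors deposited raw counts, whole numbers of reads for each gene. The submitters' processing notes name bcl2fastq, Bowtie2 and HTSeq and the build GRCh38. The read shift, duplicate removal, use of strand, overlapping genes and the interval counted per gene were not given in the sources used here. Groups and replicate numbers came from the labels. Entries whose mean normalized count exceeded 2 in any group were tested with edgeR 4.0.16 (R 4.3.3), with TMM factors over the entries kept, a quasi-likelihood fit to all 12 samples and Benjamini-Hochberg adjustment over all 27579 entries. The SE is the log2 fold change divided by the square root of F. Nothing says whether the replicates were separate cultures, so p-values measure the spread between these samples only. Pairs of replicates differed by slightly more than sampling noise (chi-square per degree of freedom 1.05 to 1.28). Alternatives were other scaling factors and filters, DESeq2 1.42.0, as in the study, a replicate block and leaving out samples. The code was tested on simulated data. Promoters, spans and neighbours came from RefSeq (GRCh38.p14). Figures were drawn with matplotlib 3.10.9. All 10 genes are named; genes called in any comparison, AFF1 and the 2 genes with the most counts are given in every sample, and of the other elongation genes those called and, against Mock cells, the smallest p in each direction. The genes and lists were chosen with earlier results of these data known.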

Additional observations from a re-analysis of the deposited data

Results flagged for a closer look

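Differences between the days of the experiment were tested directly, as the contrast of d3 or d28 with d0, and 7 of them passed the test for genes named here (edgeR's quasi-likelihood test with Benjamini-Hochberg adjustment). They are differences between effects against the same Mock cells. ELL2 had a log2 fold change of -0.71 at d3 (adjusted p = 0.0127) and of -0.60 at d28 (adjusted p = 0.0374) against d0. HEXIM2 had 1.09 at d3 (adjusted p = 0.0111). SUPT6H had 1.07 at d3 (adjusted p = 0.0303) and 1.11 at d28 (adjusted p = 0.0123). ICE2 had 0.87 at d28 (adjusted p = 0.0427), and KMT2A had 0.96 at d28 (adjusted p = 2.94e-05). With 3 samples per group, single samples could not be tested as outliers.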

How the results depend on the processing

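The values rest on few reads, 0 to 126 per gene and sample for the 10 genes, and each call for ELL and ELL2 was lost in some of the alternatives. Of the 10 genes, 1, 0, 0, 1, 1 and 0 were called at d0, d3 and d28 against Mock cells, d3 and d28 against d0 and d28 against d3. With library sizes alone as scaling these counts were 2, 1, 8, 0, 6 and 8, while 1411, 709, 17855, 145, 12262 and 16061 of all 30983 entries tested under that scaling were called. At d0 against Mock cells the count was 0 without the mitochondrial genes, without a filter, with a replicate block, with only the 2 groups compared, with DESeq2 (which gave no adjusted p for 4 of the genes, ELL among them) and with TMM factors over all entries, an alternative chosen after seeing the data. At d3 against d0 it was 0 without a filter. At d28 against d0 it was 0 without the mitochondrial genes, without a filter, with the block, with DESeq2 and with TMM factors over all entries. DESeq2 gave no adjusted p for 4 of the genes there, while ELL2 had one (0.102). Leaving out single samples gave 0 to 1 in each of these 3 comparisons.

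Of the other elongation genes, 1, 2, 1, 2, 2 and 0 were called in the same order. With library sizes alone it was 4, 1, 28, 2, 22 and 27, beside the same counts over all entries. At d0 it was 0 without a filter, with only the 2 groups compared and with DESeq2 (which gave no adjusted p for 10 of these genes), and 0 to 1 with a sample left out. At d3 against Mock cells it was 1 with RLE factors and with DESeq2, 4 with TMM factors over all entries, and 1 to 2 with a sample left out. At d28 against Mock cells it was 2 without the mitochondrial genes, with filterByExpr, without a filter and with TMM factors over all entries, and 1 to 2 with a sample left out. DESeq2 called 0 at d3 and 0 at d28 against d0, where it gave no adjusted p for 7 and 10 of these genes. The replicate block called 1 at d28 (SUPT6H, with ICE2 lost), and leaving out samples gave 0 to 2 at d3 and 0 to 1 at d28. The cause of these changes was not tested. The replicate numbers did not pair the samples: the correlation of same-numbered deviations was between -0.15 and 0.08, and in no comparison did every sample correlate best with its own number. The block changed no other count by more than 1.5 times.

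Among values that passed the test in either fit, signs turned under library sizes alone, where the median of all entries moved to -1.34, -0.87 and -0.97 at d28 against Mock cells, d0 and d3. At d28 against Mock cells the log2 fold changes were then -1.06 for AFF1, -1.26 for AFF3, -1.03 for AFF4, -1.002 for MLLT3, -0.18 for ELL3, -0.88 for MLLT10 and -0.92 for SUPT6H. Against d0 they were -0.76 for AFF4, -0.69 for MLLT3, -0.90 for CCNT1, -0.66 for DOT1L, -0.87 for MLLT10 and -0.038 for ICE2. Against d3 they were -0.92 for AFF1, -0.84 for AFF3, -0.79 for ELL, -0.88 for ELL2, -0.99 for MLLT3, -0.78 for CCNT1, -0.74 for DOT1L, -0.68 for KMT2A, -0.93 for SUPT6H and -0.71 for ICE2. Values that passed in neither fit also changed sign, such as AFF3 at d0 against Mock cells (-0.17, and -0.50 to 0.29 over the alternatives other than library sizes), MLLT1 at d0 (0.25, and -0.28 to 0.77) and HEXIM2 at d3 (-0.02, and -0.17 to 0.37).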
